A study of Mus musculus with 5 samples.

Results

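The step described here is the difference between the array of day 3 and the array of day 2 in a culture of mouse bone marrow-derived macrophages turning into osteoclasts. Both arrays belong to a course of 5, with 1 array each at days 0, 1, 2, 3 and 5. All samples are labelled wild-type, from mice 10 weeks old. Bone marrow cells were grown on plastic with M-CSF, the macrophage growth factor, and RANKL, the cytokine that drives osteoclast formation. Per the labels M-CSF was given at 20 ng/ml, and RANKL at 30 ng/ml, for the stated number of days, so that day 0 is the macrophage before differentiation, days 1, 2 and 3 are differentiating cells and day 5 is the mature osteoclast. Each array was made from 5 ng of total RNA. How many mice stood behind each array is not stated in the labels, and no array was made from cells kept in culture without RANKL, so that time in culture and differentiation cannot be told apart.

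The difference was taken for each gene on the log2 scale from the deposited values, which were normalised by RMA, a method that brings all arrays to one distribution. Of 22180 genes with a row of their own, 12049 had a mean over the 5 arrays of at least 4.89, the median of the means of all 41345 rows on the arrays, and are called measured below. The genes nearest that limit were Ooep, Wfdc15a and Glra4 on the inner side and Neu4, Lrrc1 and Kcnmb4 on the outer side, with differences between -0.26 and 0.39. With 1 array a day no difference has a replicate check and no test was made. A gene is counted as higher or lower where its difference was at least 1 on the log2 scale, which is 2-fold. As a measure of the disagreement between rows, the differences of 2 rows of the same gene were compared in 477 genes. The SD between them was 0.42, which is 0.29 for 1 row. Both rows were read on the same arrays, so this does not cover errors that rows of an array share. It does not cover the spread between cultures either. The array medians lay between 4.88 and 4.92 on all 5 days, as the normalisation sets them.

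A dividing cell copies its DNA in S phase and separates the copies in mitosis. E2F factors drive the genes for entry into S phase and for replication, while the MuvB complex with B-Myb and FoxM1 drives the later mitotic genes, often through a promoter string called the CHR. Osteoclasts form when macrophage precursors, which divide in response to M-CSF, stop dividing and fuse under RANKL into large cells with several nuclei that dissolve bone. Interferon-stimulated genes are a further set whose products restrain viruses and, in this lineage, osteoclast formation; many carry the interferon-stimulated response element in their promoters.

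The promoters below are examples of the strings counted in these gene groups, each from a gene with a 2-fold difference at this step. Windows run 5′ to 3′ on the gene's strand, come from RefSeq on build GRCm38.p6, and show the string found in capitals. The first 3 hold an E2F string (TTTCCCGC, TTTGGCGC or TTTCGCGC, searched on both strands) and belong to genes of origin licensing. Cdc6, which helps to load the replicative helicase onto DNA, is at chr11:98907973-98908060 on the plus strand. Mcm5 at chr8:75109316-75109403 on the plus strand and Mcm7 at chr5:138172001-138172088 on the minus strand encode subunits of that helicase.
Cdc6: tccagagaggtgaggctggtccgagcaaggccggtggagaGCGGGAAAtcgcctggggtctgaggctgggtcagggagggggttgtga
Mcm5: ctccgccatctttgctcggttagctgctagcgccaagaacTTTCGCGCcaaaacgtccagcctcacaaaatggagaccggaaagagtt
Mcm7: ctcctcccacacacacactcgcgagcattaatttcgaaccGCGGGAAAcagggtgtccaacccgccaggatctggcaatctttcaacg

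The next 3 hold the CHR string TTTGAA on either strand and belong to mitotic genes: the motor proteins Kif15 at chr9:122951022-122951080 and Kif11 at chr19:37376323-37376381, both on the plus strand, and the cytokinesis regulator Ect2 at chr3:27153947-27154032 on the minus strand. The division is not clean in these windows: Kif15 also holds an E2F string directly before its CHR string, and Mcm7 also holds the CHR variant TTCGAA. Further matches in the windows shown are left in lower case. In Kif15 and Kif11 the string starts 19 bases before the transcription start, and in Ect2 114 bases before it.
Kif15: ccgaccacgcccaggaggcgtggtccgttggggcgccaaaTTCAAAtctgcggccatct
Kif11: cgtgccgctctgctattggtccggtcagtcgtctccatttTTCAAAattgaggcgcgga
Ect2: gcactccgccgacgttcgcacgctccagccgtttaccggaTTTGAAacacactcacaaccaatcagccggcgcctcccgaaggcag

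The last 3 hold the interferon-stimulated response element, searched as GAAA, any 2 bases and GAAA on both strands, and belong to genes that were higher at day 3: the antiviral Ifit1 at chr19:34640764-34640853 on the plus strand, the ubiquitin-like Isg15 at chr4:156200835-156200924 on the minus strand, and the interferon signal transducer Stat2 at chr10:128270248-128270325 on the plus strand.
Ifit1: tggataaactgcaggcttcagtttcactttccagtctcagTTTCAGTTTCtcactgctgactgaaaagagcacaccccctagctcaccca
Isg15: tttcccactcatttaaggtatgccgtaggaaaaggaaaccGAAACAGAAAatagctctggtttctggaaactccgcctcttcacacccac
Stat2: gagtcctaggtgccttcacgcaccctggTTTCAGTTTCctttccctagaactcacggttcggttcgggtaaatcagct

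Over the whole table, 251 genes were higher at day 3 than at day 2, or 2.08% of the measured genes, and 471 were lower, or 3.91%. Among genes past 4-fold, 26 were higher and 46 lower, while the 4 differences past 8-fold were all towards higher levels. The median of all measured genes was 0 and the SD of their differences was 0.50. When each array was centred on the median level of 13 reference genes, the median of all genes moved by -0.17, and the counts became 164 higher and 642 lower. That median level was 11.61 at day 2 and 11.77 at day 3, while the median of the 13 genes' own differences was 0.03. The 13 genes were not all level: their differences ran from -0.58 for Tbp to 0.73 for Tfrc. At day 5, 2 of the 13 were at least 2-fold higher than at day 1, and Tfrc was 2.56 higher. Shifting by that smaller difference, an alternative chosen after seeing the data, gave 229 higher and 503 lower. The neighbouring steps had another shape. From day 1 to day 2, 297 genes were higher (2.46%) and 67 lower (0.556%), and from day 3 to day 5 only 19 were higher (0.158%) and 14 lower (0.116%). The step from day 0 to day 1 also had more lower than higher genes, with 351 higher (2.91%) and 503 lower (4.17%).

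**Figure D1:**
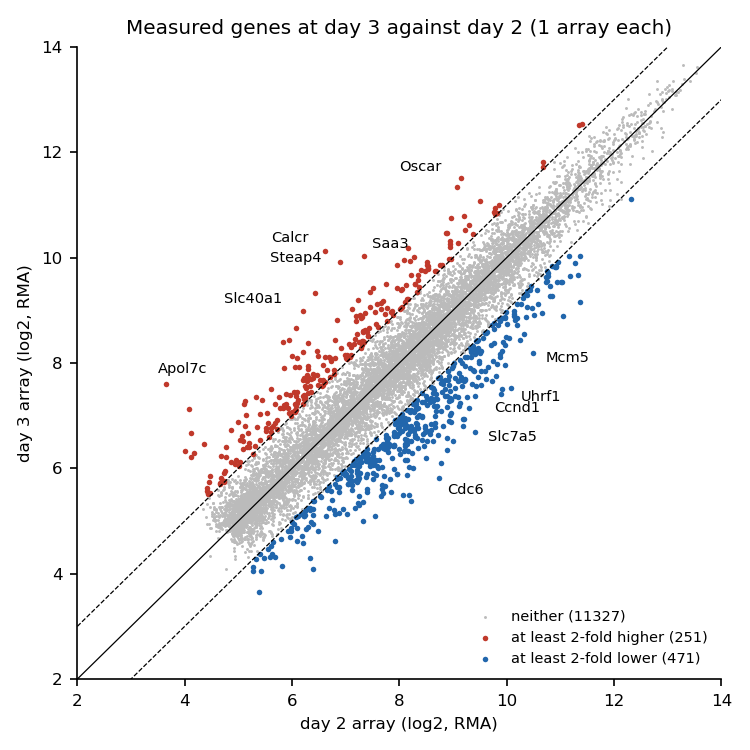
Level of each of the 12049 measured genes on the day 2 array (horizontal axis, log2 RMA value) and the day 3 array (vertical axis, log2 RMA value), with the 251 genes at least 2-fold higher in red and the 471 at least 2-fold lower in blue. The solid line marks equal levels and the dashed lines a 2-fold difference; Apol7c and Calcr lie farthest above it, and Cdc6 and Slc7a5 farthest below among the labelled genes.

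The lower genes were, for a large part, genes of the cell cycle. Of the 209 measured genes in 9 lists that cover entry into S phase, replication, repair and mitosis, 137 were lower, none was higher and 200 had a difference below 0; their median difference was -1.35, against 0 for all measured genes. These 137 made up 29.1% of the 471 lower genes, while the 209 made up 1.73% of all measured genes and none of the 251 higher genes. With the arrays centred on the reference genes 149 of the 209 were lower, and with the arrays centred on the measured genes 132 were. Their median level was 8.88, 9.16, 8.74, 7.42 and 7.58 at days 0, 1, 2, 3 and 5. The level was thus highest at day 1, for 150 of the 209 genes, and lowest at day 3 for 131 and at day 5 for 65. At day 3 only 3 of the 209 were below the level of 4.89, so that the transcripts were lower but mostly still measured. The arrays count neither cells nor divisions, and in RNA from a whole culture fewer dividing cells and less RNA per cell cannot be told apart.

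Among the 18 regulators of entry into S phase, 8 were lower, with a median of -0.81. Ccnd1, cyclin D1, which links growth factor signals to the cell cycle, had levels of 10.91, 10.86, 9.89, 7.42 and 8.35 on the 5 arrays, a difference of -2.47. It was already below its day 1 level at day 2 and partly regained at day 5. The repressive E2F factors E2f8 and E2f7 had differences of -2.25 and -2.07, those of the activating factors E2f1, E2f2 and E2f3 were -0.69, -0.40 and -0.72, and that of the retinoblastoma gene Rb1, the brake on E2F, was 0.21. The kinases Cdk4, Cdk6 and Cdk2 stayed within 2-fold, at -0.47, -0.51 and -0.44.

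Licensing and firing of replication origins gave the gene with the largest lower difference of all 12049. Cdc6 had levels of 9.14, 9.14, 8.74, 5.82 and 6.20 at days 0, 1, 2, 3 and 5, a difference of -2.92, or 7.56-fold. The 3 early arrays were close together, and so were both late ones. Of the 24 genes in this group, 17 were lower, with a median of -1.43. The 6 subunits of the MCM helicase, which unwinds DNA at the fork, were all among them, from -1.49 for Mcm6 to -2.32 for Mcm5. Mcm5 stood at 10.47, 10.78, 10.50, 8.18 and 8.34 on the 5 arrays, flat before the step and flat after it. Gins1, a helicase cofactor, went from 8.90 at day 2 to 6.58 at day 3 and 7.37 at day 5. By contrast the origin recognition genes Orc2, Orc3, Orc4 and Orc5 had differences between -0.15 and -0.56, while Orc1 and Orc6 were past 2-fold at -1.22 and -1.35.

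At the fork itself 16 of 30 genes were lower, with a median of -1.05. The largest differences were those of Prim1, the primase that starts each strand (-1.96), Pole, the catalytic subunit of polymerase epsilon (-1.94), and Wdhd1 (-1.88). A second, dim row of Pole differed by 0.08. The sliding clamp Pcna and the flap nuclease Fen1 did not reach 2-fold, at -0.84 and -0.95, and Rfc2 was equal on both arrays. Of 15 genes that supply deoxynucleotides and pyrimidines, 8 were lower, led by Rrm2, a ribonucleotide reductase subunit, at -2.05, and the pyrimidine enzymes Ctps and Cad at -1.71 and -1.63. A second row of Rrm2 differed by -1.29. The p53-regulated subunit Rrm2b, the dNTP hydrolase Samhd1 and the nucleoside transporter Slc29a1 had differences of 0.15, 0.37 and 0.53.

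Repair and replication-coupled chromatin genes were lower in 21 of 26 cases, with a median of -1.56. Uhrf1, which carries DNA methylation over to new strands, had levels of 10.05, 10.31, 10.08, 7.52 and 7.75 and a difference of -2.55. Its partner Dnmt1, the maintenance methyltransferase, was within 2-fold at -0.70. The chromatin remodeller Hells had a difference of -2.48 and the histone variant gene H2ax went from 11.36 to 9.16, while Brca1 was within 2-fold at -0.54 and Brca2 was lower at -1.60. H2az1, another histone variant, differed by 0.01.

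Mitotic genes were lower in the largest share. Of 45 genes of the spindle, kinetochore and cytokinesis, 41 were lower with a median of -1.61, and of 20 genes of mitotic entry 17 were, with a median of -1.49. Mybl2, the B-Myb subunit of the complex that drives mitotic genes, had levels of 8.40, 9.29, 8.88, 6.34 and 6.42 and a difference of -2.54. A dimmer row of Mybl2 differed by -0.46. The kinase gene Aurkb had a difference of -2.01 and cyclin A2, Ccna2, one of -1.95. Kif15 was at 8.76, 9.18, 8.50, 6.19 and 6.83 on the 5 arrays, and Anln, a contractile ring protein, at 9.55, 10.02, 9.30, 7.14 and 7.58. Both were highest at day 1 and lowest at day 3. The 4 spindle and kinetochore genes within 2-fold were Cenpa, Cenpp, Sgo2a and Bub3, named after their values were seen.

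Condensation and cohesion genes divided by role. Topoisomerase Top2a and the condensin genes Smc2, Ncaph and Ncapd2 were lower by 2-fold or more, with differences of -2.07, -1.71, -1.56 and -1.54, and the condensin genes Smc4 and Ncapg2 missed it at -0.94 and -0.90. The cohesin genes Smc1a, Smc3, Rad21, Stag1 and Stag2, whose products also shape chromosomes in cells that do not divide, had differences between -0.68 and 0.04. In all 6 of 16 were lower, the other 2 being Esco2 and Cdca5, which set cohesin up in S phase. Around the anaphase-promoting complex, its activator Cdc20, its ubiquitin carrier Ube2c and its inhibitor Fbxo5 were lower (-1.59, -1.34 and -1.98), 3 of 15 genes, and the core subunits measured, such as Anapc1 and Cdc27, were within 2-fold. Pttg1, securin, had a difference of 0.42.

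**Figure D2:**
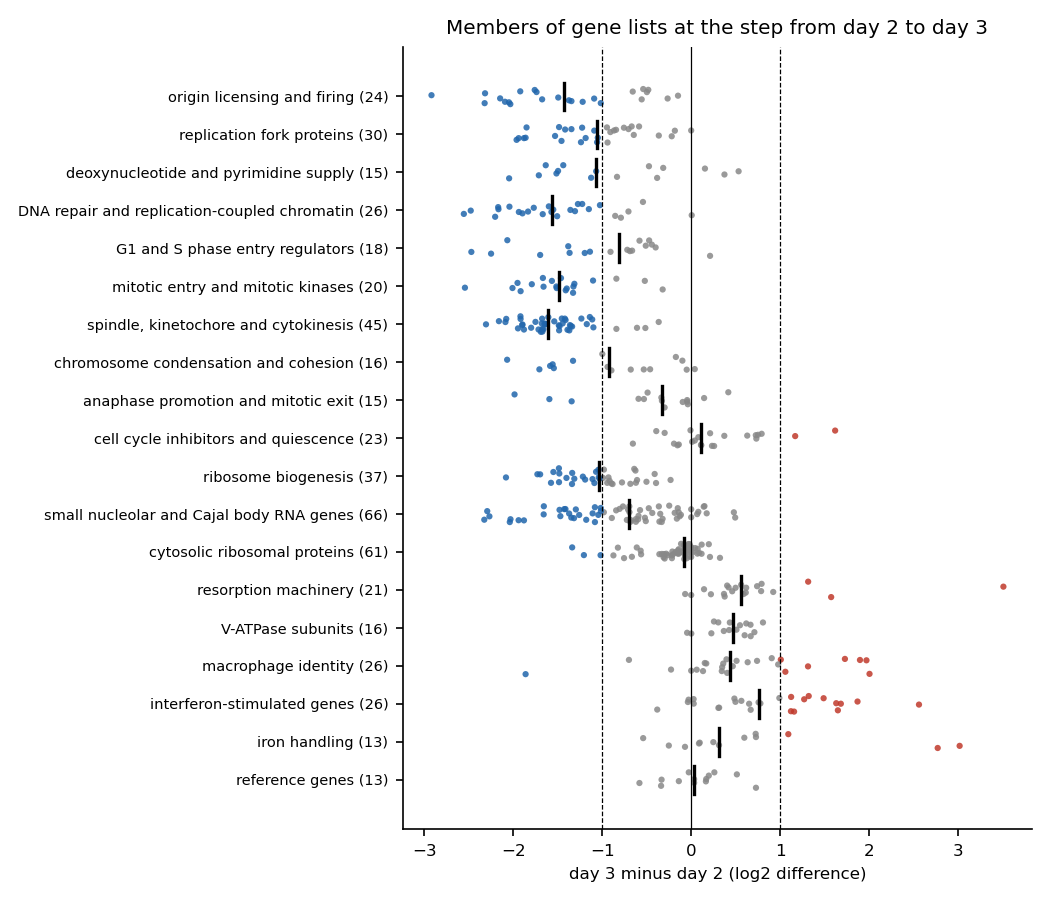
Difference between day 3 and day 2 (horizontal axis, log2) for each measured member of 19 gene lists, with the number of members in brackets, red for at least 2-fold higher, blue for at least 2-fold lower and a black bar at each list's median. The median lies at -1.61 for spindle genes, at -1.43 for licensing genes, at 0.03 for reference genes and at 0.77 for interferon-stimulated genes; the vertical scatter within a list has no meaning.

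Inhibitors of the cell cycle mostly stayed within 2-fold. Of 23 measured, 2 were higher (8.70%, against 2.08% of all measured genes) and none was lower (against 3.91%). The 2 were Trp53inp1, a p53 target, at 7.35, 6.92, 7.45, 9.07 and 8.75 on the 5 arrays, and Cdkn2b, p15, at 6.88, 6.86, 7.57, 8.74 and 8.42. The list's median was 0.11, and -0.05 with the arrays centred on the reference genes. Cdkn1b, p27, differed by 0.73 and Cdkn1a, p21, by -0.14. Both higher inhibitors kept most of their day 3 level at day 5.

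Histone genes moved in both directions. Of 26 measured, 12 were lower (46.2%, against 3.91% of all measured genes) and 4 higher (15.4%, against 2.08%). This family was put together from the current gene symbols after values were seen, and 2 of its genes, H2ax and H2az1, are also in the repair and chromatin list. The replication histone H2bc3 had levels of 11.05, 11.33, 11.05, 8.90 and 9.84, a difference of -2.15, and H2bc18 one of -1.89. The 4 higher genes were H2bc21 at 7.13, 7.47, 7.51, 9.43 and 9.47, H4c8 (1.87), H2aw (1.61) and H1f2 (1.19). Many histone genes are near-identical copies, so that rows of this family may share probes.

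The cell cycle lists differed in the promoter strings they held. RefSeq windows from 250 bases before to 50 bases after the start were held for 9534 of the measured genes, 12021 windows in all. An E2F string was found in 3.43% of all windows, in 11.3% of those of the lower genes and in 0 of 227 windows of the higher genes. Within the cell cycle lists it was in 42.1% of windows for regulators of S phase entry, 37.5% for licensing, 29.2% for repair and chromatin and 7 of 28 for the fork, against 6.52% for spindle and kinetochore genes and 6.25% for mitotic entry. Nucleotide supply, with 0 of 21 windows, and condensation, with 4 of 13, did not follow this division into S phase and mitotic genes. The CHR string was most frequent in the mitotic lists. It was in 12.1% of all windows, 63.0% of spindle and kinetochore windows and 56.2% of those for mitotic entry, against 6 of 24 for licensing and 7.14% for the fork. For anaphase promotion it was in 33.3% of windows, and an E2F string was in 0 of 15. CCAAT, the box bound by NF-Y, was in 37.5% of all windows, 12 of 16 of those for mitotic entry and 69.6% of those for the spindle, and also in 66.7% of those for repair and chromatin and 62.5% of those for licensing. Other strings were searched too: CACGTG was in 9.71% of cell cycle windows (9.89% of all), TGANTCA in 0.971% (5.51%) and TGATGNAA in 2.91% (2.4%). These are matches of letters in one window per start and show no binding. Different kinds of string, such as the CHR string and the interferon element, can share letters. Each kind was searched on its own, and shared matches were neither merged nor masked.

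Slc7a5 and Myc were lower, each as the single member of its list past 2-fold, where 3.91% of all measured genes were lower. Slc7a5, which carries leucine and other large amino acids into the cell, had levels of 8.02, 9.73, 9.41, 6.69 and 6.79, so it was high at days 1 and 2 and below its day 0 level afterwards, a difference of -2.73. It was the only one of 17 measured amino acid transporters past 2-fold; the partner chain Slc3a2 differed by -0.26. Myc, the growth factor-induced transcription factor, followed the same course at 9.11, 10.37, 9.94, 8.41 and 8.34 and was the only one of 7 genes of its network past 2-fold, at -1.53. Of 13 genes of serine and one-carbon synthesis 4 were lower (30.8%, against the same 3.91%): Psat1 (-1.49), Mthfd1l (-1.39), Shmt2 (-1.19) and Shmt1 (-1.13). None of 18 genes of the ATF4 response and none of 18 cytosolic aminoacyl-tRNA synthetases was past 2-fold, with medians of 0.15 and -0.28; the first of these turned to -0.02 with reference centring.

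Ribosome assembly, which supplies growing cells with ribosomes, was lower over much of its list. Of 37 ribosome biogenesis genes 20 were lower (54.1%, against 3.91% of all measured genes) and none was higher, with a median of -1.04. With reference centring 27 were lower, and 16 with centring on the measured genes. Rrp1b stood at 7.41, 8.14, 7.68, 5.60 and 6.02 on the 5 arrays. Dkc1, the pseudouridine synthase, stood at 8.53, 10.02, 9.65, 7.92 and 7.60 and Nop58, a core protein of box C/D particles, at 9.97, 10.97, 10.65, 8.95 and 8.94. Day 1 was the highest array for 25 of the 37 genes and day 2 for the other 12, and the median level over the list was 8.91, 9.69, 9.65, 8.73 and 8.58. The ribosomal proteins themselves were mostly level. Of 61 cytosolic ones 3 were lower, Rpl34, Rpl3 and Rps27 (4.92%, against 3.91% of all measured genes), with a median of -0.08. The row used for Rpl3, with a mean level of 8.15, differed by -1.21. A second row of Rpl3, with a mean level of 7.74, differed by 0.19, and a dimmer one by -0.32. None of 68 mitochondrial ribosomal proteins and none of 36 proteasome subunits was past 2-fold.

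Small nucleolar RNAs, which guide the modification of ribosomal RNA and are cut from the introns of host genes, were lower together with the biogenesis proteins. This family was chosen after values were seen. Of 66 measured small nucleolar and Cajal body RNA genes 25 were lower (37.9%, against 3.91% of all measured genes) and none was higher, with a median of -0.69. Snord99 had levels of 6.98, 8.34, 8.14, 5.88 and 6.18 and Scarna10 had 5.98, 6.84, 6.33, 4.29 and 5.13. Among 13 host genes 3 were lower (23.1%), Snhg5 (-1.96), Snhg7 (-1.45) and Snhg17 (-1.18). The rows may read the host's intron or precursor as well as the small RNA, which was not tested.

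Of 147 measured microRNA genes 3 were higher (2.04%) and 8 lower (5.44%), against 2.08% and 3.91% of all measured genes; with reference centring 1 was higher and 10 lower. Mir103-2 had the largest difference among them, 3.05, with levels of 5.99, 5.67, 4.07, 7.13 and 5.97, so that its day 2 value lay below the level limit. Of the 8 lower ones, 3 lie together on chromosome 14 in the miR-17 cluster and are shown for their shared position. The cluster is a target of Myc and E2F factors, but whether these had a part in the differences was not tested. These 3 and Mir103-2 were named after their values were seen. The mature sequences are from RefSeq, with the seed, bases 2 to 8, in capitals; miR-17-5p and miR-20a-5p share a seed, and miR-19a-3p has its own.
miR-17-5p: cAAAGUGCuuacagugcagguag
miR-20a-5p: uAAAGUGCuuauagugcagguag
miR-19a-3p: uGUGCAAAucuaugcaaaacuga

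On the 5 arrays Mir17 stood at 5.10, 5.83, 5.99, 4.86 and 4.61, Mir20a at 7.26, 8.68, 8.18, 6.78 and 7.02 and Mir19a at 5.88, 7.16, 6.65, 5.58 and 5.77. Mir18 of the same cluster, with a difference of -0.96, just missed 2-fold. Each row belongs to the microRNA gene and not to one arm, and whether it reads the primary transcript was not tested.

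Some of the largest lower differences were in genes that were higher at day 1 than at day 0. Pgf, the placental growth factor, had levels of 4.13, 10.09, 8.78, 6.10 and 5.59, high only at days 1 and 2. Gja1, the gap junction protein connexin 43, stood at 6.90, 8.14, 8.17, 5.50 and 4.79. Ltbp1, which binds latent TGF-beta, had a single high array at day 2, with 5.36, 6.83, 8.81, 6.81 and 6.14. Of the 471 lower genes, 73 had been at least 2-fold higher at day 1 than at day 0 (15.5%, against 2.91% of all measured genes) and 12 at least 2-fold lower (2.55%, against 4.17%). In lipid metabolism the fatty acid synthase Fasn, the elongase Elovl6 and the desaturase Fads2 were lower (-1.25, -1.69 and -1.21) and the fatty acid carrier Fabp4 was higher (1.92), of 23 measured genes. That is 13.0% lower and 4.35% higher, against 3.91% and 2.08% of all measured genes.

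The higher genes held a late set of osteoclast genes and a set that had been high in the macrophage. In the first, Calcr, the calcitonin receptor of mature osteoclasts, had levels of 4.43, 4.61, 6.62, 10.13 and 10.54, which is 11.4-fold between days 2 and 3. Steap4, a metalloreductase for iron and copper, stood at 4.32, 4.84, 6.90, 9.92 and 9.95. Oscar, the costimulatory receptor of osteoclasts, stood at 4.88, 4.67, 9.15, 11.52 and 11.68. All 3 were low at days 0 and 1, intermediate at day 2 and close to their final level at day 3. St8sia6, a sialyltransferase, and Msln, mesothelin, had the same form, with differences of 2.90 and 2.57.

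Most of the resorption machinery was already high at day 2. Of 21 measured genes 3 were higher (14.3%, against 2.08% of all measured genes): Calcr, the integrin subunit Itgb3 (1.57) and the small GTPase Rab38 (1.31). The list's median was 0.56, and its median level was 8.05, 8.86, 10.53, 11.09 and 11.01 on the 5 arrays. Acp5, the tartrate-resistant acid phosphatase that marks osteoclasts, stood at 7.10, 10.56, 12.39, 12.76 and 12.86, and Ctsk, cathepsin K, at 6.54, 10.02, 12.65, 13.11 and 13.29. The cells labelled as differentiating thus carried the defining osteoclast transcripts on both arrays compared. None of 16 subunits of the proton pump V-ATPase passed 2-fold, although their median was 0.47, or 0.31 with reference centring. None of 13 fusion genes did, with Dcstamp and Ocstamp both at 0.52; Adam8, lower at day 3, missed the limit only in the third decimal. Of 35 genes of RANK signalling and osteoclast transcription only Oscar passed it. The master regulator Nfatc1 had a difference of -0.10, Mitf one of -0.83 and Siglec15 one of 0.99. Podosome genes gave 1 higher of 30, the motor gene Myo1d (1.13), and 1 lower, Lpxn (-1.10); with reference centring Myo1d was no longer past 2-fold.

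Apol7c, an apolipoprotein L family gene, had the largest difference of all measured genes, 3.95. Its levels were 4.66, 5.27, 3.65, 7.61 and 6.31. The day 2 value was the lowest of the 5 and lay below the level limit of 4.89, so the size of the difference and its rank rest on a value under that limit. In all, 26 of the 251 higher genes had a day 2 value below the limit. Measured against day 1, day 5 was 1.05 higher.

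Iron export and uptake genes were among the higher ones, 3 of 13 measured (23.1%, against 2.08% of all measured genes). Besides Steap4 these were Slc40a1, the iron exporter ferroportin, with 8.91, 5.89, 6.21, 8.98 and 9.38, and the hepcidin regulator Hfe, with 9.61, 8.14, 7.32, 8.41 and 8.77. Ferroportin was low at days 1 and 2 alone, and Hfe did not return to its macrophage level. The transferrin receptor Tfrc differed by 0.73. With reference centring Hfe was no longer past 2-fold.

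**Figure D3:**
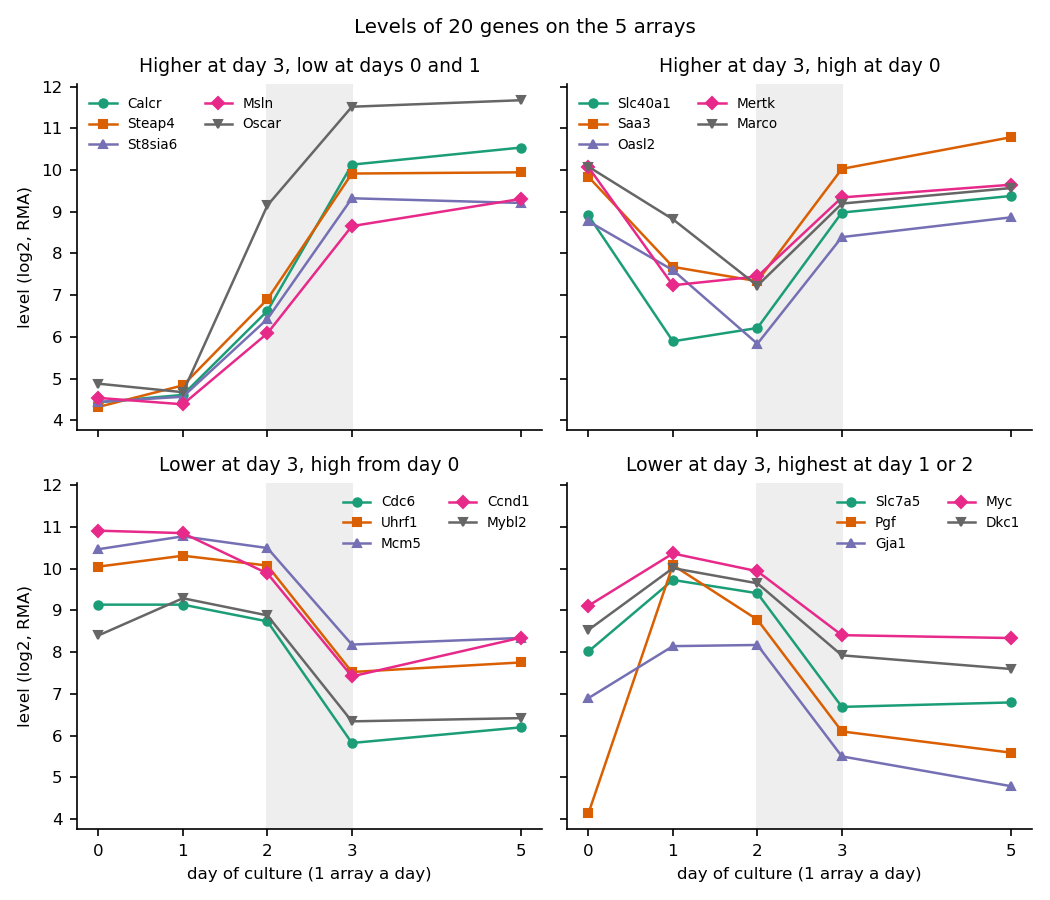
Level on each of the 5 arrays (vertical axis, log2 RMA value) against the day of culture (horizontal axis) for 20 genes in 4 panels, with the step from day 2 to day 3 shaded. Calcr, Steap4 and Oscar go from below 5 at days 0 and 1 to about their day 5 level at day 3, Slc40a1 and Oasl2 are low at day 2 and near their day 0 level at day 3, and Cdc6 and Slc7a5 are high at days 1 and 2 and low from day 3 on; points are single arrays without error bars.

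Interferon-stimulated genes were the list with the most higher members. Of 26 measured 11 were higher (42.3%, against 2.08% of all measured genes) and none was lower, with a median of 0.77. With reference centring 8 were higher and with centring on the measured genes 12 were. Oasl2, an antiviral protein of the oligoadenylate synthetase family, stood at 8.77, 7.60, 5.83, 8.39 and 8.87, Usp18, which dampens interferon signalling, at 6.53, 6.37, 5.14, 7.01 and 7.48, and Irf7, a factor that amplifies it, at 7.99, 7.69, 6.48, 8.13 and 8.87. In each the day 2 array was the lowest and day 3 was within 0.5 of day 0. Day 2 was the single lowest array for 19 of the 26 genes and for 1825 of the 12049 measured genes. The median level of the list was 7.65, 7.19, 6.34, 7.70 and 7.78. Ifit3 had the lowest difference, -0.38. The response element, added to the strings after values were seen, was in 13 of the 26 windows of this list, 11.9% of those of all higher genes, 3.76% of those of the lower genes and 3.05% of all windows.

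Macrophage identity genes had a similar form. Of 26 measured 7 were higher (26.9%, against 2.08% of all measured genes): Adgre4 (2.00), the scavenger receptor Marco (1.97), Mertk, a receptor for the uptake of dying cells (1.90), Clec7a (1.73), Fcgr3 (1.31), Aif1 (1.06) and Fcgr1 (1.01). The common macrophage markers Csf1r, Adgre1, Cd68, Itgam and Lyz2 did not pass 2-fold, with differences of 0.34, 0.74, 0.40, 0.06 and 0.36. Mertk had levels of 10.07, 7.24, 7.45, 9.34 and 9.65 and Marco had 10.08, 8.82, 7.23, 9.20 and 9.57. Day 0 was the highest array for 21 of the 26 genes and day 2 the lowest for 16, and the median level was 10.57, 9.56, 8.75, 9.80 and 10.12. The chemokine receptor Cx3cr1 was the exception past 2-fold: it was lower at day 3 and stood at 9.69, 7.89, 7.72, 5.86 and 6.23. With reference centring 5 of the 26 were higher. The acute phase gene Saa3 and the growth arrest gene Gas6, a ligand of Mertk, also dipped and returned, with 9.84, 7.68, 7.33, 10.03 and 10.79 and with 10.86, 7.40, 8.27, 10.00 and 9.99.

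**Figure D4:**
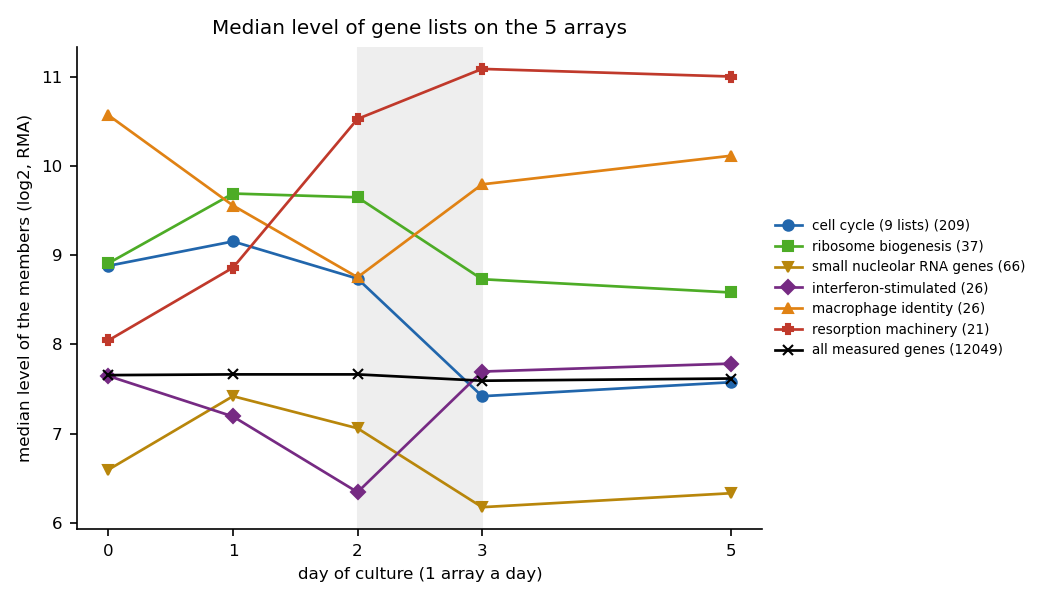
Median level of the measured members of 6 gene groups and of all measured genes (vertical axis, log2 RMA value) on each array (horizontal axis, day of culture), with the step shaded and the number of genes in brackets. The cell cycle median goes from 8.74 to 7.42 across the step and the ribosome biogenesis median from 9.65 to 8.73, while the interferon-stimulated and macrophage medians go from 6.34 to 7.70 and from 8.75 to 9.80.

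The 2-fold difference used the arrays of days 2 and 3 alone, while the level limit used the mean of all 5 arrays. The other 3 arrays thus had a part in which genes were measured, and are only described here. Day 5 against day 1 shares no array with the difference, though both its arrays entered the level limit. In it 194 of the 251 higher genes were at least 2-fold higher (77.3%, against 6.3% of all measured genes) and none was 2-fold lower. Of the 471 lower genes 417 were at least 2-fold lower (88.5%, against 6.73%) and none was 2-fold higher. Their median differences were 1.71 and -1.72, and 244 and 466 genes had the sign of the step. All 5 arrays were normalised together. The medians of the cell cycle lists in this comparison ran from -0.67 for anaphase promotion and -0.87 for S phase entry to -2.05 for the spindle and -2.15 for mitotic entry.

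Against day 0 the called genes divided. Of the 251 higher genes 125 were at least 2-fold above their macrophage level at day 5 (49.8%, against 6.78% of all measured genes), 14 were 2-fold below it (5.58%, against 6.56%) and 112 were within 2-fold of it. Of these 251, 71 had been 2-fold lower at day 1 than at day 0 (28.3%, against 4.17%) and 13 higher (5.18%, against 2.91%). Of the 471 lower genes 288 were at least 2-fold below day 0 at day 5 (61.1%, against 6.56%), 1 was above it and 182 were within 2-fold. Sesn1, a stress-induced regulator of growth signalling, and Crebrf are examples of higher genes whose day 3 and day 5 values were equal, at 8.36 and 7.38. Among the lower genes, the spindle genes Kif2c and Aspm differed by no more than 0.01 between days 3 and 5.

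**Figure D5:**
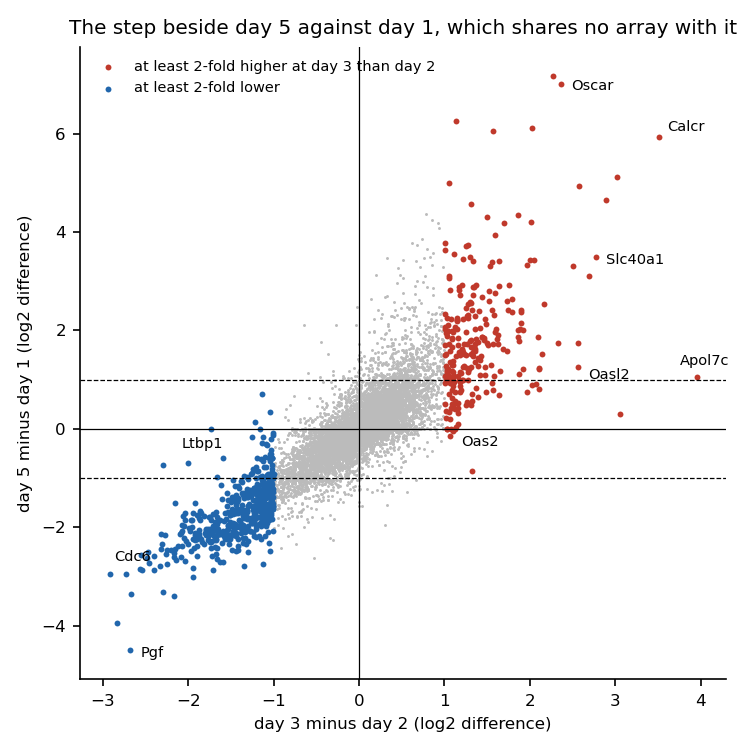
Difference between day 3 and day 2 (horizontal axis, log2) and between day 5 and day 1 (vertical axis, log2) for each measured gene, with the 251 higher genes in red, the 471 lower genes in blue and dashed lines at 2-fold on the vertical axis. Of the red points 194 lie above the upper dashed line and none below the lower one, and of the blue points 417 lie below the lower line and none above the upper one; Ltbp1, high at day 2 alone, lies at -0.69 on the vertical axis and Oas2, low at day 2 alone, at 0.

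Several metabolic and secretory lists gave no call. None of 21 genes of the tricarboxylic acid cycle, 36 of the respiratory chain, 18 of glycolysis, 32 lysosomal genes and 20 of the unfolded protein response was past 2-fold. The medians of the first 2 were 0.33 and 0.28 (0.16 and 0.12 with reference centring), and 20 of the 21 genes of the cycle, all but Idh3a, were above 0. Insig1, which holds back sterol synthesis, was the single higher gene of 18 in its pathway (5.56%, against 2.08% of all measured genes), at 1.48. Among 24 cytokines Ccl3 was higher (1.13, or no longer past 2-fold with reference centring) and Cxcl14, Ccl2 and Il10 were lower (-1.59, -1.46 and -1.14). That is 4.17% higher and 12.5% lower, against 2.08% and 3.91% of all measured genes. In complement the factor B gene Cfb was higher (1.25), 1 of 11 or 9.09%. Among 20 immediate early genes only Dusp5 was past 2-fold, at -1.39.

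Markers of other cell types were mostly level or unmeasured. Of 86 markers of neutrophils, dendritic cells, T and NK cells, B cells, stromal cells, endothelium and erythroid, megakaryocyte or mast cells, 79 had a row, 40 of these were below the level limit, 39 were measured and 1 was past 2-fold: Csf3r, the receptor for G-CSF, at 7.80, 6.44, 6.25, 7.57 and 8.11. The summed level of the neutrophil list was 11.45, 11.44, 10.43, 10.92 and 10.70 on the 5 arrays. Dcn, a stromal proteoglycan, was at 8.44 at day 2 and 7.99 at day 3, and Blnk, an adaptor of B cells that macrophages also use, at 10.63 and 10.56. The part of such cells in the differences was not tested.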

How the data were processed

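RNA of 5 samples, 1 a day, was hybridised to Affymetrix arrays after labelling with the WT Pico kit, per the labels' protocols. The deposited values are log2 intensities; per the submitters' processing notes the authors made them with RMA in the oligo package and R 3.4.0. No label names the array design, annotation or build. No depth applies to arrays, and their number, 1 a day, limits the precision. Rows were named from GEO's platform annotation: 23521 of 41345 rows name 1 gene, 1814 name several and 16010 are not listed; symbols were checked by Entrez number for 23328 rows. The brightest row stood for each of 1082 genes with several rows. Differences, counts and medians were computed with Python 3.11.15 and pandas 2.3.3, and the counting was tested on simulated data. There was no test.

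The members and lists were chosen with earlier results of these data known. Of 49 lists, 48 had measured members: the histone list used older symbols that match no row, so it was replaced by a family of current symbols. That family, 5 other lists and the interferon string were added after values were seen. The naming rule gave the 12 largest differences each way, up to 3 members each way in each list, Calcr, Steap4, Apol7c, Cdc6 and Slc7a5, up to 8 called genes each way whose day 5 value lay nearest day 3 or whose day 3 value lay nearest day 1, and the genes nearest the level limit. Predicted and small RNA genes were counted but not named by size. Not all genes of the rule are described above. Among the largest differences, Plxdc2 (2.56), Rasgrp1 (2.50), Krtap28-13 (2.33), Cdca7 (-2.46), Dtl (-2.40) and Aunip (-2.40) were left out. Other members of the lists were named for their role after their values were seen. Alternatives were other centrings (1 added after seeing the data), row rules, level limits, sizes and days.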

Additional observations from a re-analysis of the deposited data

How the results depend on the processing

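With 1 array a day no array could be left out. No paired analysis was possible because each day holds a single sample. The count of 251 higher genes became 164 with centring on the reference genes, 312 with centring on the measured genes, 242 with rows of one gene averaged, 295 without a level limit, 127 with the limit at the 75th percentile of row means, 335 with day 5 in place of day 3, 759 with day 1 in place of day 2, 929 at 1.5-fold and 58 at 3-fold. The count of 471 lower genes became 642, 397, 454, 505, 327, 452, 828, 1157 and 136 in the same order. Shifting by the median difference of the reference genes, chosen after seeing the data, gave 229 and 503. The higher genes were 34.8% of all called genes in the values reported, 20.3% with reference centring and 44.0% with centring on the measured genes. Medians of 10 of the 48 lists, all under 0.17, turned from above to below 0 with reference centring, and 2 turned the other way with centring on the measured genes.

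With day 1 in place of day 2 the list medians became -1.19 for S phase entry, -1.81 for licensing, -1.41 for the fork, -1.68 for nucleotide supply, -2.00 for repair and chromatin, -2.09 for mitotic entry, -2.24 for the spindle, -0.66 for anaphase promotion, 1.85 for resorption, 0.12 for macrophage identity and 0.31 for interferon-stimulated genes. With day 5 in place of day 3 the macrophage median became 0.75. None of the list medians past 2-fold, and none of the 24 genes with the largest differences, changed sign under the alternatives run. Of the 111 genes past 2-fold that the naming rule gave, 4 changed sign with day 1 in place of day 2: Il10 (0.37), Oas3 (-0.06), Aif1 (-0.12) and Pmepa1 (0.10). None of the 111 changed sign with day 5 in place of day 3 or with another centring. They were no longer past 2-fold in 23 cases with day 1 for day 2, in 14 with day 5 for day 3, and in 8 with either centring; with reference centring these were Myo1d, Hfe, Ccl3, Siglec1, Oas3, Oas2, Igf1 and Aif1.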

Other observations

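Outside the lists named so far, members of 2 further groups were higher at day 3, where 2.08% of all measured genes were higher. Both groups were chosen after their values were seen, and that choice can itself raise their shares. Of 14 circadian clock genes 2 were higher: Dbp, a factor under direct control of the clock, with 5.64, 6.01, 5.34, 7.36 and 6.90 on the arrays of days 0, 1, 2, 3 and 5, and Per3, with 6.41, 6.05, 5.72, 6.74 and 6.41. The median of the 14 was 0, with 6 genes above 0 and 6 below it. With reference centring 1 of the 14 was higher and 1 lower, and Per3 was no longer past 2-fold. Dbp and Per3 were lowest at day 2 and highest at day 3, and the hour of harvest is not given in the sources used here. Of 6 hedgehog pathway genes, the co-receptors Boc and Cdon were higher, with 4.56, 4.87, 6.47, 8.22 and 7.79 and with 5.14, 5.09, 6.22, 7.71 and 7.22. The receptor Ptch1, whose transcript hedgehog signals raise, differed by 0.43.

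Rows without a gene name in the annotation used here carried a larger share of differences than the named ones. Of 7065 such rows at or above the level limit, 220 were at least 2-fold higher (3.11%) and 441 lower (6.24%), against 2.03% and 3.89% of the 12661 rows that name 1 gene. Rows that name several genes had 19 higher and 40 lower of 947.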
